A study of Mus musculus with 10 samples.

Results

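Visceral white adipose tissue (WAT) of wild-type (Mof+/+) C57BL/6 mice on a standard diet (SD) gave 3 of the 10 mRNA-seq libraries of the study and is its untreated baseline. They were chosen by their labels, which give a wild-type genotype and the standard diet. The series' design text gives an age of 8 weeks and calls the libraries biological replicates. The other libraries were 3 from SD Mof+/− mice of the same age, 2 from Mof+/+ mice and 2 from Mof+/− mice, the last 4 aged 27 weeks after 20 weeks on a high-fat diet (HFD) by the design text, while the study's own text gives a longer time on HFD. All mice were labelled as C57BL/6, while the study's methods give backcrossing to C57BL/6J and describe the animals as males. Mof, listed under the symbol Kat8, is a histone acetyltransferase, and Mof+/− animals carry 1 intact copy in every cell. RNA was taken from equal weights of whole tissue, so each library mixes fat cells with all the other cells of the depot, and fewer cells of a type and less RNA per cell cannot be told apart.

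The 3 SD Mof+/+ libraries held 7829250, 7301119 and 7748240 counts on genes. They detected 15841, 16497 and 17160 genes with at least 1 count, and 13967, 14190 and 14888 with at least 10. The other 7 libraries held between 1044355 and 17171947 counts. The column heading inside the third SD Mof+/+ file names a heterozygous SD sample, and the heading of the third SD Mof+/− file names a control, so library 3 was kept under its label and results were also computed without it. In that library the Y-linked genes Ddx3y, Eif2s3y, Kdm5d and Uty stood at 73.8, 72.2, 37.9 and 16.4 CPM (counts per 1000000 counts on genes), and Xist, the RNA of the inactive X chromosome, at 0. Libraries 1 and 2 showed the same pattern. All 3 libraries labelled SD Mof+/− had no count on those 4 Y-linked genes and held Xist at 139, 46.1 and 58.0 CPM, so genotype and sex cannot be told apart between the SD groups.

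A white fat cell stores triglyceride in a single large droplet coated by perilipins. It makes fatty acids with Fasn and desaturates them with Scd1, takes up others after Lpl has freed them from circulating lipoproteins, and releases them again through Pnpla2 and Lipe. It also secretes hormones and other proteins, among them adiponectin, leptin, resistin and adipsin. Around it lie progenitors and fibroblasts that lay down collagen, a dense capillary bed with its pericytes, and macrophages and lymphocytes.

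Products of the mitochondrial genome and of the fat cell filled the top of the abundance ranking. CPM here is a gene's count scaled by the total count on all genes of that library, and it ranks genes by the reads they took, not by transcripts per gene length. The gene with the most counts was mt-Co1, a subunit of cytochrome c oxidase, at 35414, 23818 and 30223 CPM in libraries 1, 2 and 3 (29819 ± 5809, s.d., n = 3). Of the 20 genes with the highest mean CPM, 6 lay on the mitochondrial genome, 8 belonged to the adipocyte list of 29 genes and 2 to the stromal lists. Of the top 20, 18 stood among the 20 highest of every library. The top 20 took 17.7 ± 0.86% of counts, and 697, 649 and 753 genes were enough to hold 50% of the counts of the 3 libraries.

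Among nuclear genes, Scd1 and Car3 took the most counts. Scd1 stood at 14495, 19142 and 16403 CPM, with library 2 highest. Car3, a carbonic anhydrase abundant in fat, stood at 15170, 20240 and 13686 CPM, so that the order of Scd1 and Car3 changed between libraries. Fasn stood at 7203, 8128 and 4897 CPM and was lowest in library 3. Genes of fat uptake and handling were also in the top 20. Fabp4, the fatty acid carrier of the fat cell, stood at 9721, 9563 and 8001 CPM. Lpl stood at 5150, 5380 and 4195 CPM, and Cd36, a fatty acid transporter, at 3645, 4296 and 2550 CPM, with library 3 lowest for all of these. Gelsolin and adipsin ranked above these, after Scd1 and Car3 among nuclear genes. Cfd (adipsin) stood at 9901, 12413 and 12381 CPM, Gsn (gelsolin, which cuts actin filaments) at 11974, 13687 and 12771, and Apoe, a lipoprotein component, at 4679, 4336 and 4489. Apoe had the smallest relative spread of these genes (4501 ± 172, n = 3). Adipoq, which encodes adiponectin, stood at 2135, 3220 and 2628 CPM, and Hp, the haemoglobin carrier haptoglobin, at 2131, 3120 and 2412 CPM. Gm42418, at 4882, 3581 and 4621 CPM, overlaps a ribosomal RNA locus on chromosome 17, and its reads may come from either.

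**Figure D1:**
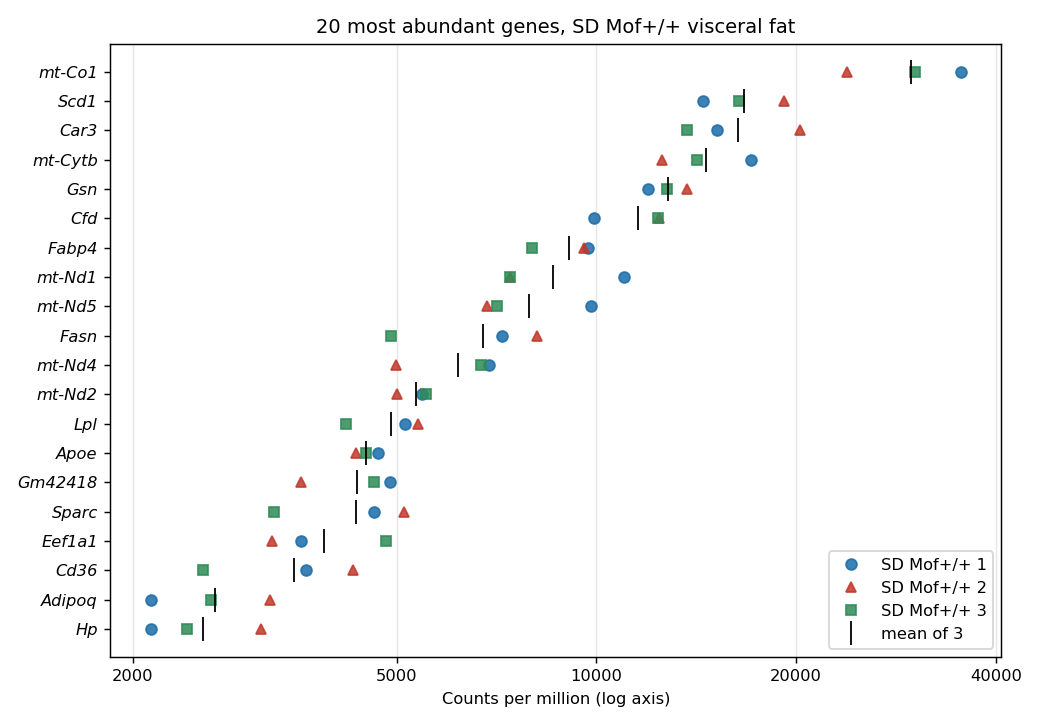
The 20 genes with the highest mean CPM over the SD Mof+/+ libraries, with CPM on a log axis, 1 point per library and gene and a black mark at the mean. The 6 mitochondrial genes and the adipocyte genes fill most positions, and mt-Co1 is highest in each library.

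Scaled for exon length, Cfd (adipsin) had the highest level of all nuclear genes. Counts were divided by the length of each gene's merged exons and rescaled to the same total per library as CPM. Merged exons cover all annotated isoforms and can be longer than the transcript a cell makes, which would understate the level of genes such as Fabp4, with 4489 bases of merged exon, so the order of genes on this scale is approximate. On this scale Cfd, with 922 bases of exon, stood at 30246, 39127 and 36427, above every value of the next gene, Car3, at 14913, 20531 and 12959. Gsn followed at 10682, 12600 and 10974, then Scd1 at 9604 ± 1576, Apoe at 5918 ± 235, Fabp4 at 5709 ± 758 and Adipoq at 5431 ± 1233 (n = 3 each). The gaps between Apoe, Fabp4 and Adipoq were smaller than the spread between libraries, so their order is not settled. Of the top 20 by CPM, 16 stayed in the top 20 by length-scaled level. Short transcripts moved up: Ifi27l2a, an interferon-induced gene, reached 5182 ± 2052, B2m, the light chain of MHC class I, 5096 ± 1244, Rplp1, a ribosomal stalk protein, 4811 ± 1204, and Lgals1, a galectin, 3920 ± 1165. Gm23935 reached 10633 ± 2605, but its exon is 57 bases long, shorter than a read, so the scaled value cannot be set beside those of longer genes.

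The promoters of Cfd, first in that ranking, and of Adipoq, whose product defines the fat cell, are shown because both genes lie among the 15 nuclear genes of highest length-scaled level. The sequences run from 250 bases before to 50 after the start of each gene in RefSeq's annotation of GRCm38.p6. Cfd lies on the plus strand at chr10:79890603-79890902 and Adipoq on the plus strand at chr16:23146286-23146585. Capitals mark matches to CCAAT or its reverse complement ATTGG, searched on both strands, of which no pair overlaps.
Cfd: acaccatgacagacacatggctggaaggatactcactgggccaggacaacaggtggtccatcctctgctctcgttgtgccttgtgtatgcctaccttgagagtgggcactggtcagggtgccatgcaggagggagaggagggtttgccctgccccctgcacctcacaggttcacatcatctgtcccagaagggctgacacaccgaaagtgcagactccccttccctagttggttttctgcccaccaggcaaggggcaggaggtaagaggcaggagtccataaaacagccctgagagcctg
Adipoq: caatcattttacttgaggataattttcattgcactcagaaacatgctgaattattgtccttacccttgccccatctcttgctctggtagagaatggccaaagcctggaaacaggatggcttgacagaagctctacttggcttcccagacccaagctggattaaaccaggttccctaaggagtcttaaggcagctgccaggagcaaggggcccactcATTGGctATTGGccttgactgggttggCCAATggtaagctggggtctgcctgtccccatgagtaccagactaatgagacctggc
The Cfd window held 0 matches and the Adipoq window 3, of which 1 was CCAAT and 2 were ATTGG. The first began 34 bases and the last 7 bases before the gene's start. At least 1 match was found in 37.4% of the 32851 promoters of the table, and as many matches as in Adipoq in 3.37%. A match is a string of letters and not a measured binding site. Of the 15 nuclear genes with the highest length-scaled level, 6 had a promoter in the table.

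Most reads of the mitochondrial genome fell on few genes. Beside mt-Co1, mt-Cytb, the cytochrome b of complex III, stood at 17096, 12559 and 14192 CPM, and the complex I subunits mt-Nd1 at 10996, 7409 and 7409 and mt-Nd5 at 9819, 6830 and 7093. Library 1 was highest for all of them. In contrast, mt-Co2 stood at 63.1, 41.9 and 45.0 CPM, mt-Co3 at 31.9, 23.3 and 30.1 and mt-Atp6 at 18.9, 14.4 and 16.0. These 3 genes were picked out after their values were seen. Mitochondrial genes have near-identical copies in the nuclear genome, and reads that match both can be lost or split in counting, so these levels are uncertain. The 34 nuclear-coded respiratory chain genes were steadier. All 34 stayed within 2-fold across the libraries, and Atp5b, the catalytic subunit of ATP synthase, stood at 1403, 1840 and 1443 CPM. Together they held 0.852, 1.01 and 0.921% of counts.

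The 5 classes of marker genes (202 genes in all) held 21.8, 20.9 and 19.8% of the counts of the 3 libraries. Adipocyte genes took 8.58, 10.8 and 8.28%, and mitochondrially encoded genes 8.82, 6.26 and 7.26%. Stromal genes took 3.05, 3.00 and 2.87%, the smallest relative spread of the 5 classes (2.97 ± 0.0918%). Vascular genes took 0.847, 0.512 and 0.466%, and immune genes 0.481, 0.372 and 0.885%. The libraries thus differed most in the 2 smallest classes, vascular genes in library 1 and immune genes in library 3. Counting error was far below these gaps, with an exact 95% binomial interval of 8.56 to 8.60% for the adipocyte share of library 1, although reads are not independent molecules and such intervals cover counting error only.

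**Figure D2:**
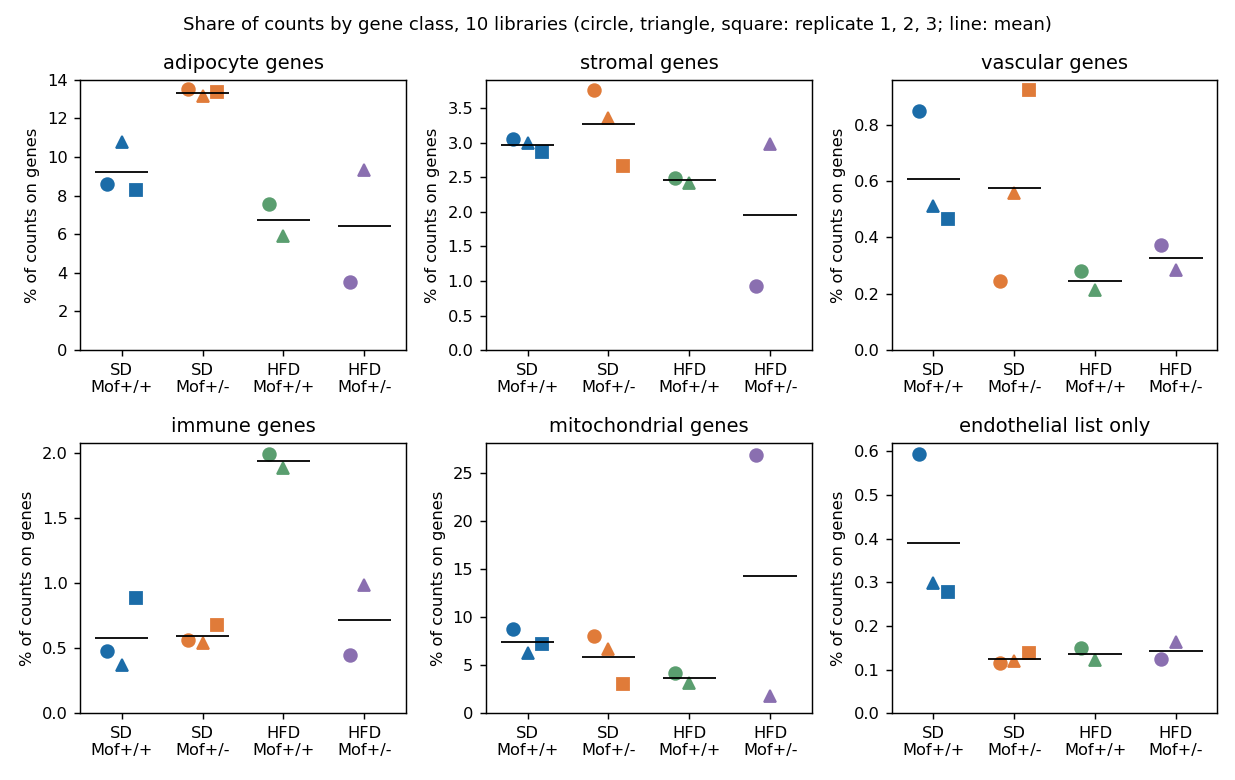
Share of all gene counts, in percent, taken by each of the 5 marker classes and by the endothelial list alone, 1 point per library and a line at each group's mean. In the SD Mof+/+ libraries the adipocyte share lies between 8.28 and 10.8% and the stromal share between 2.87 and 3.05%.

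Most adipocyte genes were highest in library 2. Between libraries 1 and 3 these genes went both ways, with Fasn lower and Adipoq higher in library 3. All 29 had at least 10 counts in each library, 27 of 29 stayed within 2-fold across the 3 libraries, and 26 were highest in library 2, against 4300 of all 12267 genes with adequate counts. Their median deviation from the mean of the 3 libraries was 0.33 (log2) in library 2. The widest spread was that of Pck1, an enzyme on a pathway to the glycerol backbone of stored fat, at 162, 460 and 963 CPM. Lep (leptin) stood at 1115, 1812 and 634 CPM. Brown fat genes were mostly low. Ucp1, the uncoupling protein that defines the brown fat cell, had 0, 0 and 0.903 CPM and Elovl3 was at 0 in all 3, while Cidea, a lipid droplet protein of thermogenic fat, stood at 0, 1.10 and 35.4 CPM. Cox8b, Prdm16 and Kcnk3 of the same list lay between 3.70 and 30.1 CPM. Ppargc1a stood at 7.28, 12.2 and 9.29 CPM and Ebf2, which is also on the progenitor and fibroblast list, at 36.5, 46.8 and 30.1 CPM.

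The summed share of progenitor and fibroblast genes was 1.74, 1.80 and 1.82%, and that of collagen and matrix genes 1.31, 1.20 and 1.05%. Of the progenitor and fibroblast genes, Dcn, a collagen-binding proteoglycan, stood at 1982, 1294 and 1525 CPM, C3 of the complement cascade at 1215, 1203 and 1606, and Dpt, a matrix protein, at 382, 384 and 525. Of the 20 progenitor and fibroblast genes, 16 stayed within 2-fold, with a median coefficient of variation (CV) of 20.6%. Dpp4, a peptidase of progenitor cells, varied more, at 11.0, 15.3 and 44.8 CPM, as did Thy1, a surface protein, at 31.4, 62.0 and 125, both highest in library 3 and picked out after their values were seen. Among collagen and matrix genes, Sparc stood at 4614, 5137 and 3268 CPM, Col3a1 at 2275, 1895 and 1805 and Col1a2 at 1055, 745 and 960. Of the 20 genes in the matrix list, 19 stayed within 2-fold, with a median CV of 14.0%, against 72.0% of all genes within 2-fold and a median CV of 23.3%.

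Endothelial genes set library 1 apart. Pecam1, an adhesion molecule of vessel lining, stood at 700, 290 and 292 CPM, Cdh5, the cadherin of endothelial junctions, at 572, 315 and 253, and Ptprb, a vascular phosphatase, at 472, 181 and 204. Vwf, a clotting factor carrier made by vessel lining, stood at 513, 179 and 150 CPM. Libraries 2 and 3 lay close together in these genes and library 1 was higher. Of 21 endothelial genes, 19 were highest in library 1, with a median deviation of 0.76 (log2), and 3 of 21 stayed within 2-fold. The exception among the most abundant was Rgcc, at 278, 419 and 239 CPM. Their summed share was 0.595, 0.298 and 0.279%, and in the other 7 libraries of the series it lay between 0.115 and 0.163%. Pericyte and smooth muscle genes differed less, with 9 of 13 within 2-fold. Rgs5 stood at 498, 393 and 457 CPM, Steap4 at 730, 701 and 490 and Mcam at 449, 590 and 353, while Acta2, the smooth muscle actin, stood at 205, 97.1 and 159.

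Immune genes set library 3 apart, and most of the gap came from lymphocyte and antigen-presenting genes. The lymphocyte share was 0.0437, 0.0321 and 0.170%. Ighm, the heavy chain of IgM, stood at 370, 282 and 653 CPM, Igkc, the kappa light chain, at 8.30, 2.74 and 182, and Lck, a kinase of the T cell receptor, at 5.11, 2.19 and 99.2. MHC class II genes were higher in the same library, with Cd74 at 792, 694 and 1767 CPM and H2-Aa at 371, 350 and 890. Macrophage genes differed less. Lyz2, a lysozyme, stood at 657, 454 and 1000 CPM, Csf1r, the receptor of macrophage growth factors, at 293, 185 and 237, F13a1 at 235, 166 and 168 and C1qb at 178, 162 and 212, and 14 of 20 stayed within 2-fold. Granulocyte and mast cell genes took no more than 0.0065% in any of the 3 libraries.

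Ribosomal protein genes also split the libraries. They held 2.58, 2.01 and 3.73% of counts, below the range of 4.07 to 8.44% in the other 7 libraries, and 77 of 89 with adequate counts were highest in library 3. Rpl13a stood at 683, 411 and 1066 CPM and Rps4x at 663, 507 and 906. The SD Mof+/+ libraries also leaned toward long genes. Across 12253 genes, Spearman's rho between exon length and a gene's deviation from the mean of the 10 libraries reached 0.355, 0.356 and 0.322 for SD Mof+/+, while the other 7 ranged from −0.396 to 0.131. The part of this trend in the ribosomal share was not tested. Haemoglobin genes, which mark red blood cells, varied as well, with Hbb-bs at 1041, 548 and 964 CPM. Genes that respond to handling or to time of day were moderate, with Zfp36 at 112, 195 and 157 CPM and Jun at 110, 166 and 118 among 15 immediate early genes, of which 10 of 13 with adequate counts stayed within 2-fold. Of 15 clock genes with adequate counts, 12 stayed within 2-fold, and Clock stood at 101, 125 and 67.5 CPM.

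**Figure D3:**
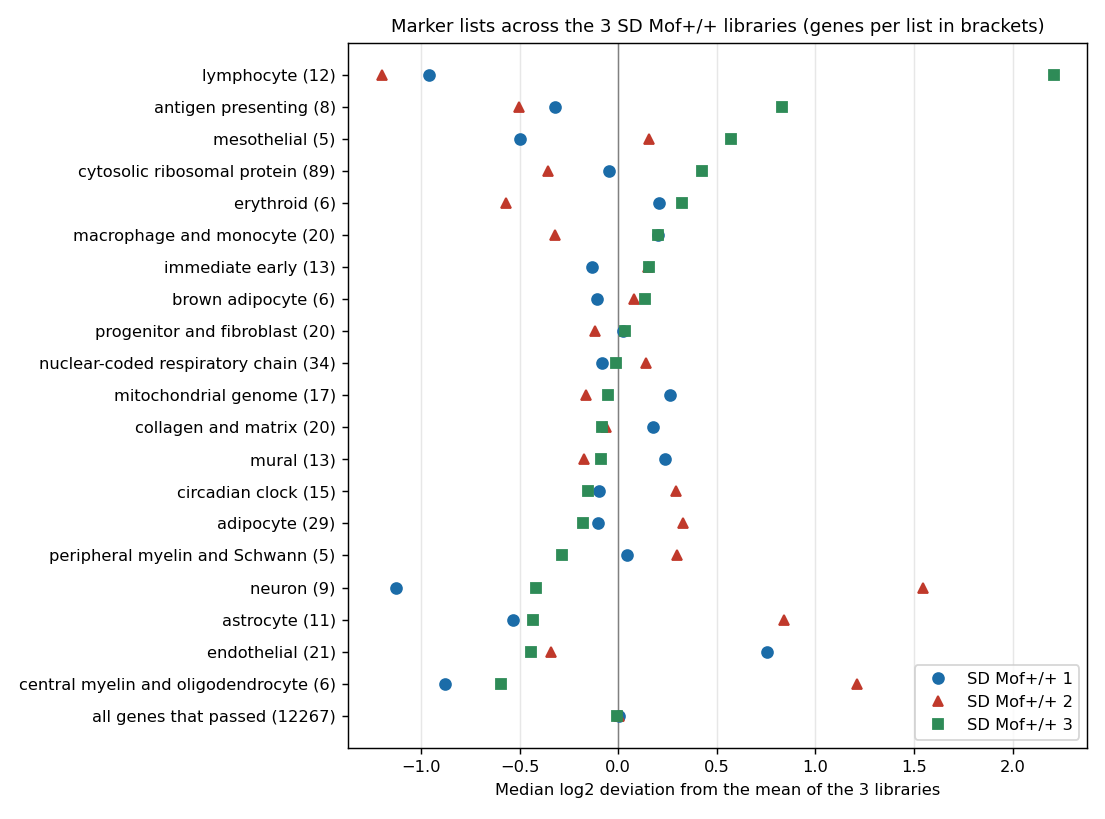
Median log2 deviation of the genes of each list from the mean of the 3 SD Mof+/+ libraries, 1 point per library. Adipocyte genes lie highest in library 2, endothelial genes in library 1 and lymphocyte genes in library 3, and the median of all genes lies near 0 in each.

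Over 12267 genes with adequate counts, Spearman's correlation across genes was 0.929 for libraries 1 and 2, 0.920 for libraries 1 and 3 and 0.901 for libraries 2 and 3. Genes share library, depth and composition and are not independent replicates. Values differed by less than 2-fold for 86.1, 85.3 and 83.4% of genes in the same 3 pairs. The median CV was 40.5% for the 2269 genes under 10 CPM, 22.0% for 8134 genes from 10 to 100 CPM, 16.1% for 1787 genes from 100 to 1000 CPM and 19.8% for the 77 genes above. The spread was thus no smaller in the last bin than in the one before it. In a check for repeat deposits of a library, the counts of each pair differed by more than sampling noise, so each library was counted as 1 sample. That check does not measure how alike the replicates are. The biological CV that edgeR fitted to the 3 libraries was 0.351, beside 0.415 for SD Mof+/−, 0.213 for HFD Mof+/+ and 0.581 for HFD Mof+/−. In that order the fits used 12267, 11801, 14105 and 8040 genes and 3, 3, 2 and 2 libraries, so the values are not directly comparable. The low-count filter keeps few of the genes described next as single-library genes, and without those the SD Mof+/+ value was 0.321 over 12129 genes. With every gene of at least 1 count included, the value was 0.794.

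The steadiest genes at 100 CPM or more, of 1864 such genes, were Hnrnpab, Morf4l1, Pdhb, Psma1 and S100a10. After TMM scaling, the RNA-binding protein Hnrnpab stood at 183.0, 184.2 and 184.6 CPM, a CV of 0.453%. Counting error alone gives a CV of 2.81% at the median level of genes from 100 to 1000 CPM, so the order of these 5 genes carries no information and such small CVs are extremes among many genes. Morf4l1, a chromatin protein, stood at 218.8, 215.8 and 217.2, and Pdhb, a subunit of pyruvate dehydrogenase, at 230.1, 233.3 and 230.7. Psma1, of the proteasome, stood at 119.8, 117.9 and 119.3, and S100a10, an annexin partner, at 234.6, 237.6 and 233.1. Kat8 itself, on chromosome 7 at 127912516 to 127925837, was modest and even, at 21.5, 21.4 and 20.4 CPM (21.1 ± 0.591, n = 3), from 168, 156 and 158 counts, and ranked 7715th in mean CPM.

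A gene was called a single-library gene if it had at least 50 counts in 1 SD Mof+/+ library and a CPM over 5 times that of both others. This rule found 602 genes, 4.89% of the 12319 genes with 50 counts in any of the 3. They were spread unequally, with 13 in library 1 (0.12% of its genes at that count), 228 in library 2 (2.11%) and 361 in library 3 (3.18%). No gene of the adipocyte, stromal, endothelial or mural lists was among them, whereas 2 of the 12 genes of the brown adipocyte list were, Zic1 in library 2 and Cidea in library 3. The values that follow describe how these genes were chosen and carry no test. Just inside the ratio of 5 were Gm26510 at 5.24 in library 1, Mapt at 5.003 in library 2 and Pstpip1 at 5.03 in library 3, and just outside were Ccser1 at 4.97, Cadps at 4.98 and Cdh3 at 4.98.

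In library 1 the set was small and its genes low. Their summed share was 0.0130% of counts, against 0.00121 and 0.00128% in the others. The 2 leading genes were 9530053A07Rik at 15.3 CPM and Svs5 at 8.30 CPM, both at 0 in all 9 other libraries. Svs5 encodes a secretory protein of the seminal vesicle, a gland that lies near the visceral fat of male mice. Against a floor of 3 counts in 1 library, taken from whichever other SD Mof+/+ library had the higher floor, they were at least 37.3-fold and 20.2-fold higher. The rest, with ratios from 5.24 to 8.39, included Efcab8, the DNA repair gene Fancb, the odorant receptor Olfr78 and the secreted hormone Stc1.

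In library 2 the set was led by genes of nervous tissue. Slc17a6, a vesicular glutamate transporter, stood at 0, 27.9 and 0.258 CPM, a ratio of 108 with a counting interval of 29.6 to 900. Grin1, a glutamate receptor subunit, stood at 27.5 and the transcription factor Zic1 at 26.4 CPM, with 0 in the other 2, at least 71.1-fold and 68.3-fold higher. Myelin and synapse genes had the highest CPM of the set, together with Bcl6, a transcriptional repressor of immune and other cells picked out after its values were seen, at 33.7, 281 and 41.0. Mbp, the basic protein of myelin, stood at 69.0, 597 and 103 CPM, and Mobp at 9.71, 189 and 14.3. Snap25, of the synaptic release machinery, stood at 1.40, 137 and 5.94 CPM, and Gfap, the filament protein of astrocytes, at 0, 17.7 and 0. Among the lists, 5 of 14 central myelin genes, 7 of 14 astrocyte genes and 7 of 20 neuron genes met the rule in library 2, and Olig2 had no count in any of the 3 libraries. Lists of 14 cerebellum and 14 forebrain genes were both chosen after values were seen. Of the cerebellum genes 7 met the rule, among them Calb2 at 16.0 and Pvalb at 15.3 CPM. None of the forebrain genes did, but only 2 of them had at least 50 counts in library 2, so the rest could not meet it. The whole set took 0.611% of the counts of library 2, against 0.0371 and 0.0575% in libraries 1 and 3, and 211 of its 228 genes were higher there than in all 7 libraries of the other groups. The genes were chosen as high in library 2, so that count is in part built in, and the share over all genes is not given here. HFD Mof+/− library 1, the shallowest, had a larger sum for this set, 0.749%, in which Pvalb alone, a gene also of fast muscle, stood at 6786 CPM. The other 13 cerebellum genes had no count there, and skeletal muscle genes took 7.43% of its counts, against 0.00510 to 0.174% in the other 9 libraries.

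In library 3 the set joined lymphoid and epithelial genes. Ms4a1 (CD20), a B cell surface protein, stood at 0, 0 and 53.0 CPM (at least 129-fold higher), the B cell transcription factor Spib at 40.8 and the IgM receptor Fcmr at 36.5, both with 0 in the others (at least 99.3-fold and 88.9-fold higher). Ighd, the heavy chain of IgD, was 63.1 times the higher of the other 2. T cell genes were among them too, with Cd4 at 0, 1.92 and 62.5 CPM and Cd8a at 2.17, 2.05 and 69.7. Glycam1, a product of the high endothelial venules of lymph nodes, stood at 0, 0 and 25.2 CPM. Of the 20 lymphocyte genes, 14 met the rule, and 13 of 18 genes of a lymphoid follicle and node list did, the latter chosen after values were seen. A second block was epithelial. Cuzd1 stood at 0, 11.0 and 107 CPM, Lrp2 (megalin, an uptake receptor of absorbing epithelia) at 0, 6.44 and 66.2, Foxj1, the regulator of motile cilia, at 0, 6.85 and 38.2 and Pax8 at 0, 0 and 10.6. In lists also chosen after values were seen, 11 of 16 motile cilium genes, 11 of 17 epithelial junction genes and 11 of 15 duct epithelium genes met the rule. The set took 1.05% of the counts of library 3, against 0.0723 and 0.0673% in the others and up to 0.593% in the first HFD Mof+/+ library, and 316 of 361 genes were higher than in all 7 libraries of the other groups. That count too is in part built in by the choice of genes, and the share over all genes is not given here.

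**Figure D4:**
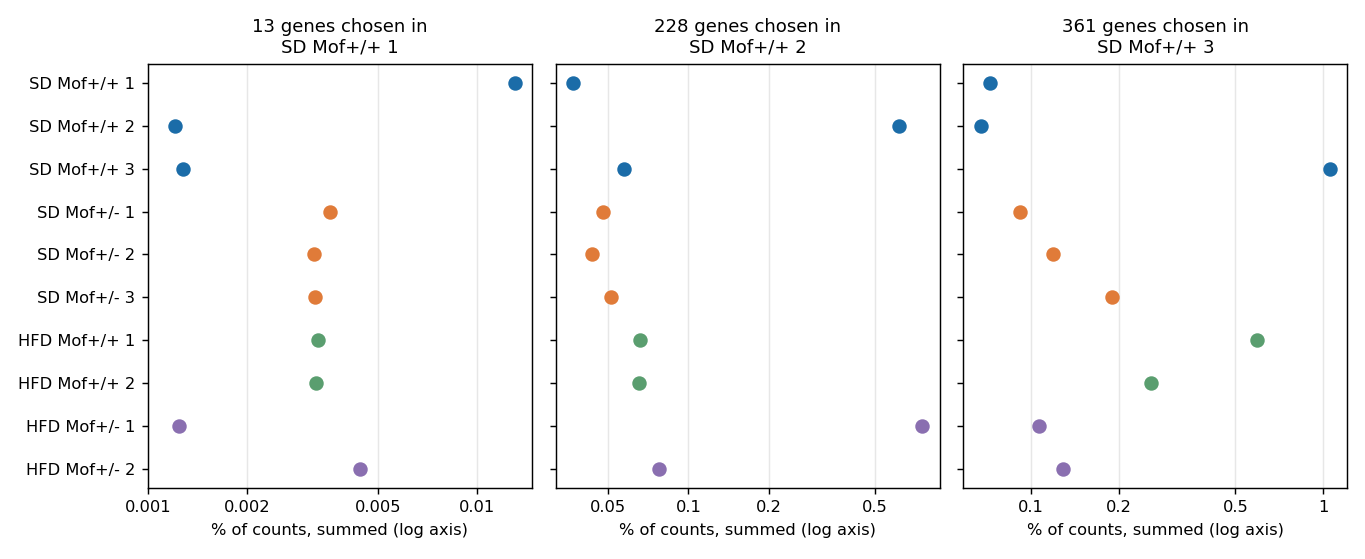
Summed share of counts, in percent on a log axis, of the 13, 228 and 361 single-library genes of SD Mof+/+ libraries 1, 2 and 3, in each of the 10 libraries, with 1 panel per set. In its own library each set takes 0.0130, 0.611 and 1.05%, and only the set of library 2 is exceeded elsewhere, in HFD Mof+/− library 1.

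The markers of other organs frame these sets. Pancreatic acinar genes summed to 7.28, 3.42 and 5.81 CPM, with 10 of 13 genes at 0 in all 3 libraries, and epididymis genes took 0.00101, 0 and 0.00137% of counts, with 8 of 15 at 0. Skeletal muscle genes took 0.0051, 0.0121 and 0.0064%. Mesothelial genes were low but present, with Upk3b at 9.32, 12.5 and 20.4 CPM. The central myelin share was 0.0170, 0.116 and 0.0243% against 0.0013 to 0.0123% in the other 7 libraries, so all 3 SD Mof+/+ libraries lay above that range. What brought such genes into a library was not tested.

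Against SD Mof+/− tissue, genotype and sex differ together and cannot be told apart. The share of adipocyte genes was 9.21 ± 1.35% in SD Mof+/+ and 13.3 ± 0.180% in SD Mof+/− (n = 3 each), and the groups did not overlap (two-sided exact permutation p = 0.1, the smallest that 3 against 3 allows, adjusted p = 0.5 over the 5 classes). With length-scaled counts the adipocyte shares were 8.62, 11.5 and 8.85% against 11.9, 12.4 and 10.3%, so the groups overlapped, and the difference was −1.87 percentage points (exact permutation p = 0.2) in place of −4.13. The other 4 classes overlapped, with exact permutation p from 0.5 to 1. Differences are given as SD Mof+/+ minus the other group. Of the 32 called differences chosen by rule for naming in this and the next comparison, 2 stayed past the threshold in all alternatives run, Fbln1 here and Cfd against HFD Mof+/+, so the other adjusted p-values for single genes depend on the settings. Over 13864 genes, edgeR's quasi-likelihood test called 265 higher (1.91%) and 462 lower (3.33%) in SD Mof+/+ at an adjusted p below 0.05. The median log2 difference of all genes was 0.07 after TMM scaling, which lowered differences by 0.36 (log2) relative to CPM. Kat8 stood at 12.2, 18.8 and 11.5 CPM in SD Mof+/−, lower than in every SD Mof+/+ library by CPM, but its fitted log2 difference was 0.22 (SE 0.35, edgeR adjusted p = 0.74). The 4 Y-linked genes were higher and Xist lower, as described above, and the part of sex in the other calls cannot be told apart from that of genotype.

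Endothelial genes were higher in SD Mof+/+, 12 of 21 with none lower (median log2 difference 2.10), and 3 of 13 mural genes were higher with none lower, where DESeq2 called 4 higher and 4 lower. Cdh5 stood at 572, 315 and 253 against 43.2, 31.6 and 31.2 CPM (log2 difference 3.07, SE 0.36, edgeR adjusted p = 0.010). Vwf, at 29.9, 17.3 and 4.02 CPM in SD Mof+/−, differed by 3.70 (SE 0.72, adjusted p = 0.035). The groups did not overlap in either gene. The endothelial count fell to 1, 3 or 4 without SD Mof+/+ library 1, 2 or 3 and to 0 without SD Mof+/− library 2, and it was 13 without library 3 of both SD groups. Their unadjusted count, p below 0.05, stayed at 12 to 16 when 1 library was left out. The summed vascular share overlapped between the groups (0.608 against 0.577%), and 2 of its smooth muscle genes were uneven in SD Mof+/−, with Acta2 at 93.8, 982 and 1823 CPM and Tagln at 80.3, 1337 and 2927.

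Of 29 adipocyte genes, 8 were lower in SD Mof+/+ and none higher (median −0.42), and 4 were lower with the exon length trend removed. Without any 1 SD Mof+/+ library, or without SD Mof+/− library 2, edgeR called 0 of them, with 9 to 12 lower at an unadjusted p below 0.05, and DESeq2 on all 6 libraries called 11. Lpl stood at 5150, 5380 and 4195 against 16292, 10278 and 22870 CPM (log2 difference −2.13, SE 0.37, edgeR adjusted p = 0.030), and Acsl1, which activates fatty acids, differed by −1.91 (SE 0.33, adjusted p = 0.029). Pck1 differed by −2.71 (SE 0.62, adjusted p = 0.046). The spread of Pck1 within the SD Mof+/+ libraries, from 162 to 963 CPM, is part of its error. Of 40 stromal genes, 9 were lower and 1, the pericyte receptor Pdgfrb, higher (1.46). Fbln1, a matrix protein, stood at 56.5, 58.6 and 59.4 against 248, 229 and 207 CPM (−2.33, SE 0.21, edgeR adjusted p = 0.0048), the largest called difference of the class, and Efemp1 and Clec3b differed by −2.15 and −2.05. Of 54 immune genes tested, the monocyte receptor Ccr2 was higher (1.74) and 4 were lower, among them Folr2 (−1.92), C1qa (−1.40) and C1qc (−1.26) of tissue macrophages. Of 21 mitochondrial genes edgeR called 0, with 4 lower at an unadjusted p below 0.05, and DESeq2 called 2 lower. Ribosomal protein genes were lower for 30 of 92 (median −1.48), immediate early genes for 8 of 14 and nuclear respiratory chain genes for 10 of 34, and with the exon length trend removed these counts were 4, 7 and 0, the last with 14 lower at an unadjusted p below 0.05. Calls in the stromal, immune, ribosomal and respiratory lists likewise fell to between 0 and 3 genes without any 1 SD Mof+/+ library or without SD Mof+/− library 2. In those fits 73 to 78 ribosomal and 20 to 25 respiratory genes were lower at an unadjusted p below 0.05, counts that need not hold the same genes in each fit. Without library 3 of both SD groups, edgeR called 587 genes in all.

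Against HFD Mof+/+ tissue, diet and age differ together and cannot be told apart. All 5 class shares failed to overlap between the groups, with an exact permutation p of 0.2 each, the smallest that 3 against 2 allows, and an adjusted p of 0.2 over the 5 classes. Adipocyte genes held 9.21 ± 1.35 against 6.75 ± 1.16%, and stromal genes 2.97 ± 0.0918 against 2.46 ± 0.0467% (n = 3 and 2). Vascular genes held 0.608 ± 0.208 against 0.246 ± 0.0471% and mitochondrial genes 7.45 ± 1.29 against 3.68 ± 0.775%. Immune genes went the other way, with 0.579 ± 0.270 against 1.94 ± 0.0768%. Over 14939 genes, edgeR called 557 higher (3.73%) and 900 lower (6.02%) in SD Mof+/+, and the median difference of all genes was 0.04 after a TMM shift of −0.13 (log2) relative to CPM. Kat8 stood at 18.1 and 19.2 CPM in HFD Mof+/+ (log2 difference 0.05, SE 0.26, edgeR adjusted p = 0.93).

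Adipsin was higher at baseline than in HFD tissue. Cfd stood at 9901, 12413 and 12381 against 624 and 533 CPM (log2 difference 4.20, SE 0.26, edgeR adjusted p = 0.0018), the largest called difference of the adipocyte list. Acaca, which makes malonyl-CoA, differed by 3.03 (SE 0.28) and Fasn by 2.87 (SE 0.31). In all, 6 of 29 adipocyte genes were higher and 3 lower (median 0.69), the latter being Lep (−2.30), at 6212 and 4599 CPM in HFD Mof+/+, Lpl (−1.23) and Trarg1 (−0.80). Vascular genes were higher for 11 of 34 and lower for none, with 6 of 21 endothelial and 5 of 13 mural genes, and all 21 endothelial differences lay above 0. Vwf differed by 2.71, the lymphatic regulator Prox1 by 3.91 and Myh11, the smooth muscle myosin, by 2.51. Without SD Mof+/+ library 1, 2 or 3 the endothelial count was 1, 3 or 14. It was 0 by edgeR without HFD Mof+/+ library 1 or 2, with 15 and 9 higher at an unadjusted p below 0.05, and 18 by DESeq2 on all 5 libraries. The adipocyte counts ranged from 1 higher and 0 lower, without HFD Mof+/+ library 2, to 8 higher and 3 lower, without SD Mof+/+ library 3.

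Of 57 immune genes tested, 16 were lower at baseline and 1 higher, most of them macrophage genes. Of 20 macrophage genes, 12 were lower and 1, the resident macrophage receptor Cd163, higher (2.44), with a median of −1.92. Trem2, a lipid receptor of macrophages, stood at 18.01, 3.97 and 25.7 against 313 and 588 CPM (log2 difference −4.96, SE 0.66, edgeR adjusted p = 0.010). The mast cell proteases Mcpt4, at 2.43, 0 and 8.39 CPM, and Cma1, at 0, 3.70 and 9.03 CPM, differed by −5.12 and −4.64. Of 40 stromal genes, Ebf2 (1.78) and Gsn (0.84) were higher, and Mfap5 (−1.38) and Postn (−1.07) lower. Of 20 mitochondrial genes, mt-Nd5 was higher (1.31), and 15 of 92 ribosomal protein genes were lower (median −0.91), counts that became 7 and 3 with the exon length trend removed. The macrophage count ranged from 3, without HFD Mof+/+ library 2, to 12, and the ribosomal count from 0, without the same library, to 66, without SD Mof+/+ library 3, with 19 and 79 lower at an unadjusted p below 0.05. The 2 comparisons share the SD Mof+/+ libraries, so their results are not independent.

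**Figure D5:**
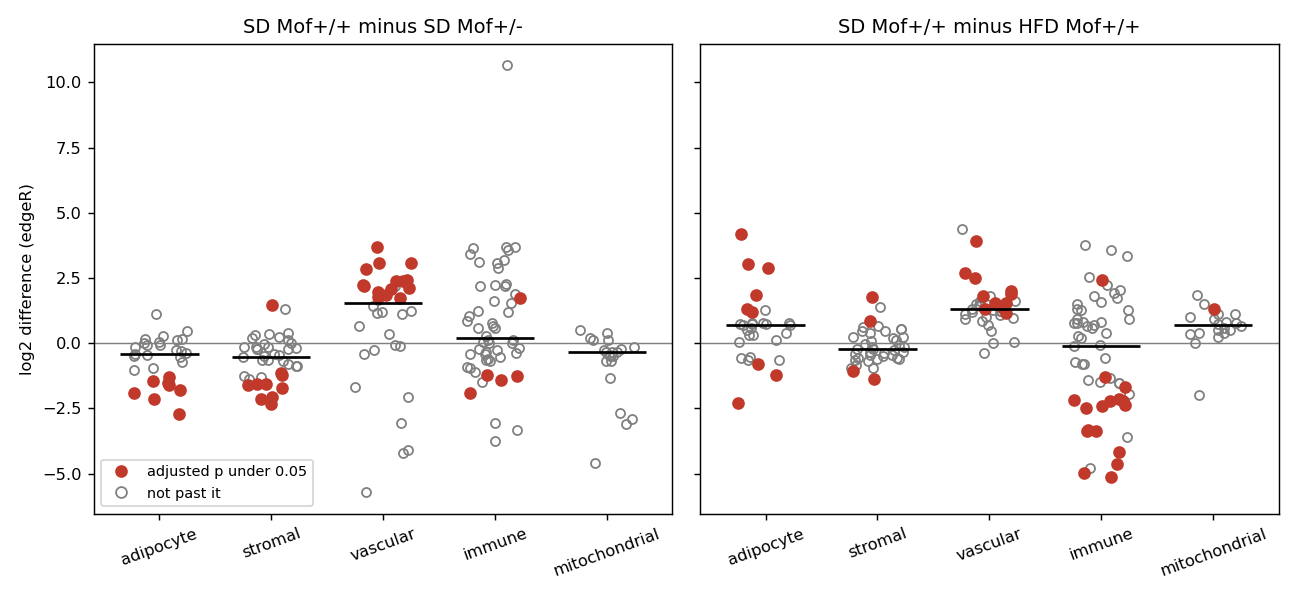
Log2 difference fitted by edgeR for each tested gene of the 5 marker classes, 1 point per gene, as SD Mof+/+ minus SD Mof+/− (left) and minus HFD Mof+/+ (right), with filled points for genes at an adjusted p below 0.05 and a line at the median of each class. In the vascular class every filled point lies above 0 in both panels, and on the right 16 of the 17 filled immune points lie below 0.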

How the data were processed

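Messenger RNA of visceral WAT was prepared with a polyA kit that does not mark strand and sequenced in pairs. The authors processed reads with snakePipes, mapped them to GRCm38 (mm10) with STAR and counted them per gene with featureCounts (Subread 1.5.0-p1), and the deposited values are raw counts for 47937 genes per library, without normalization. The annotation release was not given in the sources used here. Of the identifiers, 47310 were matched to GENCODE M21 without their version, for coordinates and exon lengths.

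Groups came from the sample labels. CPM, shares and length-scaled levels were computed with pandas 2.3.3 in Python 3.11.15, and intervals and exact permutation tests with SciPy 1.17.1. Group comparisons used edgeR 4.0.16 (R 4.3.3), with TMM scaling, filterByExpr and the quasi-likelihood test, on the 2 groups compared, with Benjamini-Hochberg adjustment over all genes tested. Adequate counts in the text means passing filterByExpr in the SD Mof+/+ libraries. DESeq2 1.42.0, other scalings and filters, the replicate block, a length correction and leaving out each library were alternatives. Tested on simulated data with the real spread, edgeR recovered 40% of 4-fold changes among 13271 genes against SD Mof+/− and 47.5% among 14213 genes against HFD Mof+/+.

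Members and the 28 marker lists were chosen with earlier results of these data known, and 7 more lists after values were seen. Named were the 20 genes highest in CPM, the 15 nuclear genes highest in length-scaled level, the 4 highest and the absent genes of a list, the 10 of largest ratio and the list members among single-library genes, the 5 steadiest, Kat8, and the 3 largest called changes per class and direction. Others, such as Tagln and the less abundant members of lists, were picked after their values were seen. Some genes that these rules name are not reported here.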

Additional observations from a re-analysis of the deposited data

How the results depend on the processing

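Of the 20 genes highest in CPM, 19 or 20 stayed there without 1 library and 16 by length-scaled level, where Cfd rose above all other nuclear genes. The correlations between libraries and the adipocyte, vascular and immune shares of SD Mof+/+ moved by less than the spread between replicates in all alternatives run. Without the mitochondrial genome the stromal share was 3.21%, and with length-scaled counts it was 2.18% and the mitochondrial share 16.1%. The 602 single-library genes became 1158 at 20 counts, 364 at 100 counts and 329 at a ratio of 10. The biological coefficient of variation of 0.351 ranged from 0.325 to 0.390 without 1 library and was 0.794 over all genes with 1 or more counts, an alternative added after seeing the data. The cause of these shifts beyond the changed gene sets was not tested.

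Differences in share between SD Mof+/+ and SD Mof+/− depended on length scaling. With length-scaled counts the adipocyte difference was -1.87 in place of -4.13 percentage points, and the groups overlapped. On that scale the stromal difference reversed from -0.293 to 0.0478 and the vascular difference from 0.0320 to -0.0278 percentage points. Against HFD Mof+/+ the adipocyte, immune and mitochondrial differences grew to 4.84, -2.62 and 8.47 points on that scale. Leaving out 1 library against SD Mof+/−, the vascular difference ranged from -0.133 to 0.206 and the immune difference from -0.169 to 0.0871 points.

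Calls against SD Mof+/− rose from 727 to 2204 with DESeq2, 1840 without a filter and 1235 with at least 10 counts in every library. They fell to 428 with the replicate block, 380 with the exon length trend removed and 194 in a fit of all 10 libraries, and ranged from 17, without SD Mof+/− library 2, to 1026, without SD Mof+/− library 1, with 19, 35 and 74 without SD Mof+/+ library 1, 2 and 3. Calls against HFD Mof+/+ rose from 1457 to 2998 with DESeq2, fell to 142 in a fit of all 10 libraries, and ranged from 64, without HFD Mof+/+ library 2, to 2230, without SD Mof+/+ library 3, where a lone HFD library was assumed to vary like the rest. The replicate block gave 1460 calls there. Replicate numbers were not taken to pair samples in the main fit. Deviations of same-numbered libraries correlated at 0.01, 0.01 and 0.03 against SD Mof+/− and at -0.05 and 0.03 against HFD Mof+/+. Such low values over all genes cannot exclude a pairing, and the deviations of the 2 HFD Mof+/+ libraries mirror each other by construction. Of 34 gene differences named by rule in the comparisons (31 genes), 32 were called, and 2 of these, Fbln1 against SD Mof+/− and Cfd against HFD Mof+/+, stayed past the threshold in all alternatives run. Only Kat8 changed sign, against HFD Mof+/+, where it ranged from -0.0215 without HFD Mof+/+ library 1 to 0.216 with the exon length trend removed, and reached 0.0860 without SD Mof+/+ library 3. The cause was not tested. Of genes under 10 CPM, 40.7% stayed within 2-fold across the 3 SD Mof+/+ libraries, against 90.7% from 100 to 1000 CPM. Counting error at the median of the lowest bin was a CV of 14.96%, below the observed 40.5%.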
